A study of Mus musculus with 12 samples.

Results

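Gfap and 8 other genes by which astrocytes are usually recognised were followed in cultures of mouse oligodendrocyte precursor cells (OPCs), the proliferating progenitors of myelinating oligodendrocytes. The 9 genes were chosen by name, from 55536 genes in the annotation: the filament proteins Gfap and Vim, the water channel Aqp4, the glutamate-handling genes Slc1a2, Slc1a3 and Glul, the metabolic enzymes Aldoc and Aldh1l1, and the calcium-binding protein S100b. All 9 passed the filter on low counts, which left 17919 genes to test. Total RNA had been sequenced from 12 libraries, 4 untreated (Ctr), 4 treated with 1 µM dexamethasone for 48 h (Dexa) and 4 given IFN-γ at 100 ng/ml over 48 h (IFNg), and per the labels the replicates of a group came from different litters. Brains of pups aged P4 to P6, of both sexes, had been pooled, from the Sox10:Cre-RCE:LoxP(EGFP) line bred from C57BL/6j and mixed C57BL/6xCD1 parents, in which Cre under Sox10 regulation switches on EGFP in the oligodendrocyte lineage. Cells were sorted as Sox10-GFP cells or by magnetic beads for CD140a, with the method used for each library not given, and all groups grew with PDGFaa and bFGF. The labels tag every sample with the EAE model, although the protocol describes cultures of pup cells.

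GFAP is the intermediate filament that builds up in astrocytes when they become reactive, and vimentin is its partner in immature and reactive glia. Astrocytes clear synaptic glutamate through GLT-1 (Slc1a2) and GLAST (Slc1a3), and glutamine synthetase (Glul) turns it into glutamine. OPCs and astrocytes descend from common glial progenitors, and several of these genes, Vim, Slc1a3, Glul and S100b among them, are also transcribed in OPCs. In bulk RNA a change in the number of cells of a type and a change in RNA per cell cannot be told apart.

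Gfap (ENSMUSG00000020932) lies at chr11:102887336-102900912 on the minus strand of GRCm38 and has 3 annotated transcripts. Gfap-201 has 9 exons and codes for 430 residues, and Gfap-202 has 8 exons and codes for 428 residues. The first 7 coding exons are the same in both, and their coding ends differ after 1162 shared bases. The end of Gfap-202 is shown because all Gfap reads were assigned between these 2 transcripts, with the last 24 shared bases in lower case and the coding bases of its own end, stop codon included, in capitals. These come from chr11:102891396-102891520, in its last exon, which lies in the intron that follows exon 7 of Gfap-201.
Gfap-202: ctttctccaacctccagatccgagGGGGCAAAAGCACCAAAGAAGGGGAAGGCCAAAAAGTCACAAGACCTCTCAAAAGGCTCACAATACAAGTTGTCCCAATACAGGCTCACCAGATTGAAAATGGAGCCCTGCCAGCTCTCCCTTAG

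Promoter windows were read for 8 of the 9 genes from RefSeq on GRCm38.p6, each with 250 bases before and 50 bases after an annotated start. Aqp4 was not matched, and Aldoc had 2 starts. IFN-γ signalling acts on promoters through the GAS element, searched here as TTCNNNGAA, a pattern that reads the same on both strands. It was found in 3 of the 9 windows (Gfap, Slc1a3 and the second start of Aldoc) and in 8.3% of all 32851 promoter windows. The windows with a match are shown 5′ to 3′ up to 20 bases from the start, with the match in capitals. Those of Gfap and Slc1a3, at chr11:102897181-102897450 and chr15:8710788-8711057, are on the minus strand, and that of Aldoc, at chr11:78323948-78324217, is on the plus strand.
Gfap: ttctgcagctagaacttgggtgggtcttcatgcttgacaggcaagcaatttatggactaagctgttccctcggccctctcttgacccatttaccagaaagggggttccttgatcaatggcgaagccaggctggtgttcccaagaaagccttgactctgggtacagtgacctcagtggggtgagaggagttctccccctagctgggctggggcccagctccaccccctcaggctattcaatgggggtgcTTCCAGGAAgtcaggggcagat
Slc1a3: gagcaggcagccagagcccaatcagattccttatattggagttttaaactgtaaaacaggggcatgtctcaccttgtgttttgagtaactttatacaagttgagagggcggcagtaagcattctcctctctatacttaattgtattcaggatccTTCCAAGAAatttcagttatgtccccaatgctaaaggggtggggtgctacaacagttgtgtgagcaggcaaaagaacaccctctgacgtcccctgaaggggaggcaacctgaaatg
Aldoc: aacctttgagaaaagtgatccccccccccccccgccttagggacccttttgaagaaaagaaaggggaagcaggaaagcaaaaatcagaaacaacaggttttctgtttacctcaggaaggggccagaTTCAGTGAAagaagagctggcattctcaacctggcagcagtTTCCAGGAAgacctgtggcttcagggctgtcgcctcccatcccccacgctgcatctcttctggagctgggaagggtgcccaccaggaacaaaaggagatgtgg

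The Gfap match, TTCCAGGAA at chr11:102897194-102897202, spans the RefSeq start and ends 63 bases before the annotated start of Gfap-201. The same 9 letters stand in the Aldoc window, beside a further match. On either strand, the interferon-response core GAAANNGAA was found in 1 member window, that of Glul, against 8.56% of all windows. The glucocorticoid receptor half-site TGTTCT was found in 1, that of Slc1a3, against 19% of all windows. No matches of different motifs overlapped in these windows. These matches describe letters in short windows and were not related to binding.

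In the 11 complete libraries, the reads assigned to genes ranged from 19209063 to 52074652. The table of Dexa replicate 3 lists 33.7% of the transcripts, so this library was left out of the main fit, and Dexa has 3 replicates below unless stated. As a check of the label, 10 OPC markers summed to between 3933 and 14720 CPM (counts scaled to library size, with TMM) in every library. The 10 microglia markers together stood at 8.61 to 14.0 CPM, and Cx3cr1, C1qb and Tyrobp stayed at or below 0.115 CPM in every library. The 10 endothelial and mural markers together stood at 7.53 to 10.97 CPM in Ctr, 12.4 to 17.1 CPM in Dexa and 15.3 to 21.9 CPM in IFNg. Acta2 was the most of this sum in IFNg, at a mean of 13.01 CPM. Of the 7 genes tested in IFNg against Ctr, only Acta2 was higher (log2 change 2.301, adjusted p = 3.07e-04, edgeR). Only Kdr was lower (-0.81, adjusted p = 0.00629, edgeR), and 5 did not pass an adjusted p of 0.05. Of all genes tested, 15.9% were called higher and 15.3% lower in this comparison. Over all groups, 10 neuron markers summed to 914 to 1545 CPM, of which Map2 was the most, 6 fibroblast markers to 0.516 to 15.3 CPM and 5 ependymal markers to 2.90 to 15.2 CPM. The part of these other cell types in the results was not tested. Replicates 3 and 4 share a prefix in their titles whose meaning is not stated, and replicates 1 and 2 have one each.

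**Figure D1:**
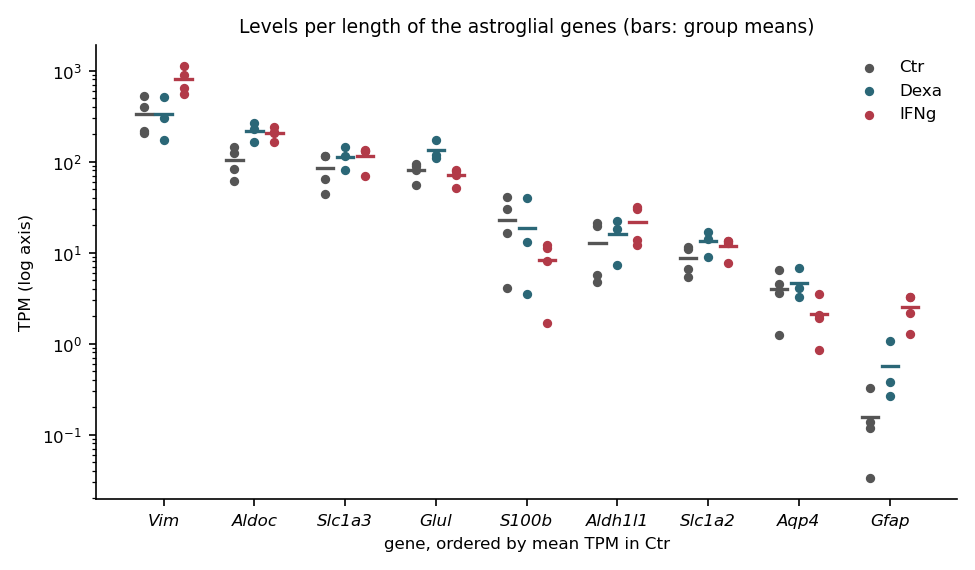
Levels per transcript length (TPM, log axis) of the 9 genes in Ctr, Dexa and IFNg, ordered by their mean in Ctr, with a point for each of the 11 complete libraries and a bar at each group mean. Vim was highest in all 3 groups at 337, 330.5 and 802 TPM, and Gfap rose from 0.154 TPM in Ctr to 2.50 TPM in IFNg.

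The untreated cultures already held 8 of the 9 genes at more than 1 TPM in every library, and Gfap was the exception. Which cells carried these transcripts was not tested. Per length, Vim was highest at 337 ± 153 TPM in Ctr (SD, n = 4), above 99.5% of protein-coding genes. Aldoc (aldolase C, a glycolytic enzyme) at 103 ± 37.9, Slc1a3 at 85.3 ± 36.7 and Glul at 80.1 ± 17.1 TPM followed, and their ranges overlapped. S100b at 22.8 ± 15.9, Aldh1l1 (a folate enzyme) at 12.7 ± 8.72 and Slc1a2 at 8.62 ± 3.11 TPM came next, again with overlapping ranges. Aqp4 was at 3.97 ± 2.17 TPM, with a range that overlapped that of Slc1a2. Gfap was last at 0.154 ± 0.124 TPM, above 41.1% of protein-coding genes, and its highest Ctr library, at 0.327 TPM, was below the lowest for Aqp4, at 1.25 TPM.

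In IFNg the order changed at its lower end. Gfap reached 2.50 ± 0.953 TPM (SD, n = 4), next to Aqp4 at 2.09 ± 1.098 TPM, and the ranges of these genes overlapped. S100b, next after Glul in Ctr, was at 8.28 ± 4.74 TPM, behind Aldh1l1 at 21.9 ± 10.3 and Slc1a2 at 11.8 ± 2.74 TPM. Vim stayed highest at 802 ± 255 TPM. In Dexa the order differed from that in Ctr only in that Glul, at 134 ± 33.8 TPM (n = 3), stood above Slc1a3, at 114 ± 33.0 TPM, with overlapping ranges.

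The Ctr cultures differed among themselves in these genes. In 8 of the 9 members, both of replicates 3 and 4 were below both of replicates 1 and 2 in Ctr, and S100b was the other way round. Over all genes tested, 30.4% were divided in the first way and 33.3% in the second. Replicate 1 had the highest Ctr level of 7 members and replicate 3 the lowest of 8. Summed over the 9 members, Ctr replicates 1 to 4 held 3111, 2367, 1123 and 1573 CPM. A list of 26 other astrocyte genes ordered the cultures the same way, at 6230, 4565, 2788 and 3372 CPM. OPC markers were in the opposite direction at 5699, 9661, 13310 and 12930 CPM, as were 10 oligodendrocyte markers at 340, 865, 1577 and 2213 CPM. S100b followed the oligodendrocyte markers, with 9.24, 31.5, 59.9 and 87.4 CPM in the same 4 cultures.

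**Figure D2:**
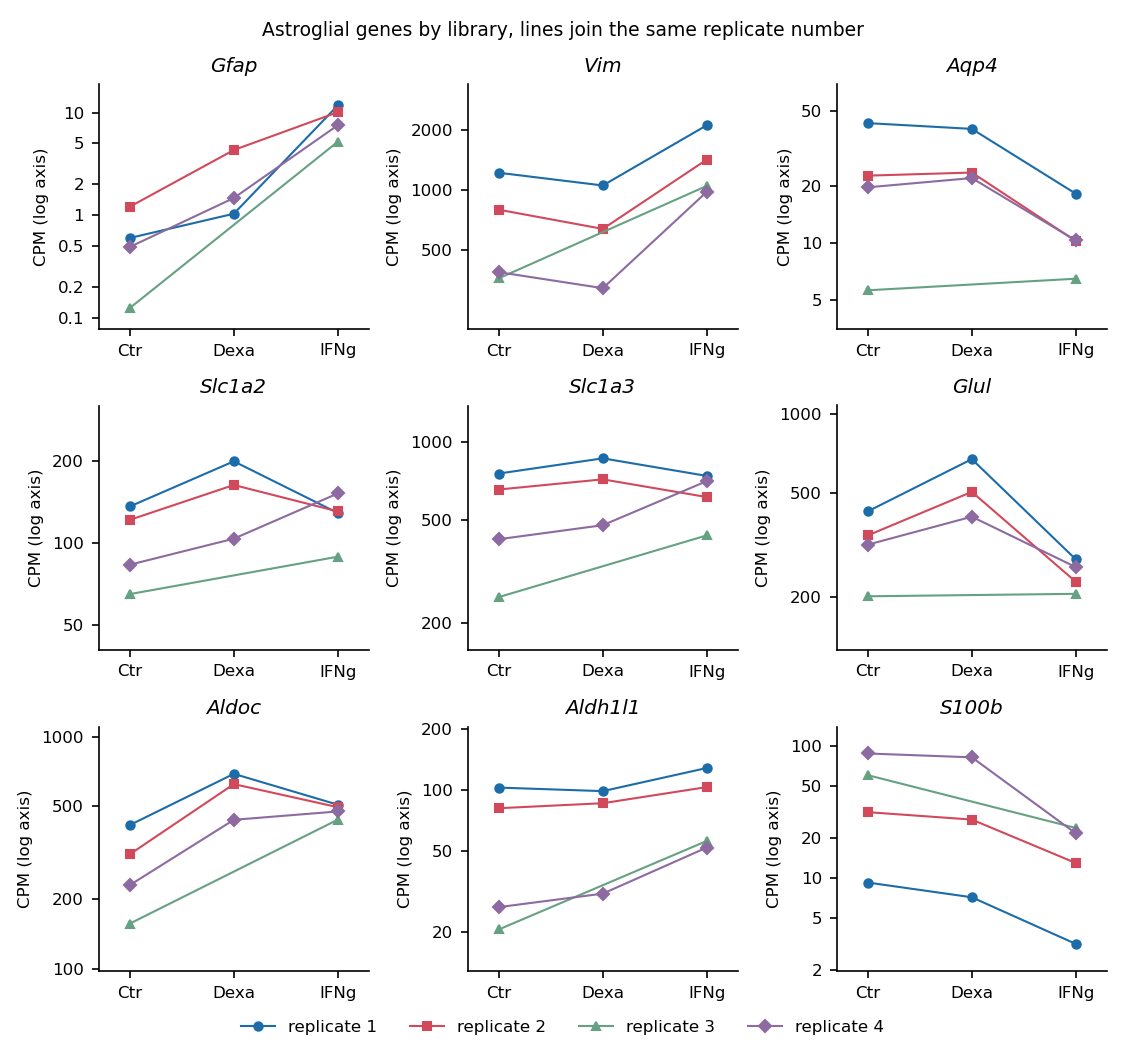
CPM (log axis) of each of the 9 genes in Ctr, Dexa and IFNg, with lines joining libraries of the same replicate number and no point for Dexa replicate 3. Gfap, Vim, Aldoc and Aldh1l1 were higher in IFNg than in Ctr in 4 of 4 replicates and S100b was lower in 4 of 4, while replicate 1 sits at the top of most panels and at the bottom of the S100b panel.

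IFN-γ treatment was set against Ctr, within replicate numbers, to ask how the cytokine changes these genes. The members did not move as a group: Gfap, Vim, Aldoc and Aldh1l1 rose, S100b, Aqp4 and Glul fell, and Slc1a2 and Slc1a3 did not pass the test in edgeR with the block. Thus 7 of 9 were called, 4 higher and 3 lower, where 15.9% of all genes tested were called higher and 15.3% lower (edgeR quasi-likelihood test with a block for the replicate number, Benjamini-Hochberg adjusted p under 0.05). The median log2 change was 0.36 over the members and -0.01 over all genes tested. The call of most members rests on the block: without it edgeR called 1 member, Gfap, and DESeq2 called 2, Gfap and Aldoc. DESeq2 with the block called 8, with Slc1a3 as the addition. Without Ctr replicate 4, with the block, 4 members were called.

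Gfap showed the largest change of the 9 genes. In replicates 1 to 4 it went from 0.598, 1.21, 0.124 and 0.489 CPM in Ctr to 11.7, 10.1, 5.19 and 7.52 CPM in IFNg. The lowest IFNg library was above the highest Ctr library, and the folds within replicates were 19.6, 8.34, 41.8 and 15.4. The log2 change was 3.99 ± 0.40 (SE; adjusted p = 1.65e-04, edgeR), a fold of 15.9. It remained called without the block (3.81, adjusted p = 0.00363, edgeR; 3.82, adjusted p = 3.98e-09, DESeq2) and with any of the 11 libraries left out, at 3.66 to 4.51. The Ctr levels rest on 22, 65, 6 and 15 reads, so counting error is largest for the 41.8-fold value of replicate 3.

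Vim was the most abundant member and rose as well. It stood at 1225, 800, 363 and 389 CPM in Ctr replicates 1 to 4 and at 2120, 1427, 1053 and 984 CPM in IFNg. The groups overlapped, since Ctr replicate 1 was above IFNg replicates 3 and 4, but IFNg was higher within every replicate, by 1.73- to 2.90-fold. The log2 change was 1.13 ± 0.13 (SE; adjusted p = 1.41e-04, edgeR), and was not called without the block (1.01, adjusted p = 0.256).

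Both metabolic enzymes rose. Aldoc went from 416, 311, 156 and 229 CPM in Ctr to 509, 496, 439 and 476 CPM in IFNg, and the groups did not overlap. Its log2 change was 0.88 ± 0.18 (SE; adjusted p = 0.0103, edgeR), and the 4 IFNg cultures lay within 1.16-fold of each other where the Ctr cultures spread over 2.66-fold. Gfap and Aldoc were the 2 of 9 members whose IFNg and Ctr libraries did not overlap, against 14.4% of all genes tested. Aldh1l1, much used as an astrocyte marker, went from 103, 81.5, 20.7 and 26.6 CPM to 129, 104, 56.3 and 52.2 CPM, higher in every replicate although the groups overlapped. Its log2 change was 0.76 ± 0.19 (SE; adjusted p = 0.0248, edgeR), and the call was lost without Ctr replicate 4 (0.70, adjusted p = 0.0825) or IFNg replicate 4 (0.68, adjusted p = 0.0913).

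S100b, the Ca2+-binding protein, fell the most. It went from 9.24, 31.5, 59.9 and 87.4 CPM in Ctr to 3.17, 13.0, 23.9 and 21.8 CPM in IFNg. The groups overlapped because the cultures differed by 9.46-fold in Ctr, but within replicates S100b fell to between 0.249 and 0.413 of its Ctr level in 4 of 4. The log2 change was -1.53 ± 0.13 (SE; adjusted p = 2.26e-05, edgeR) and was not called without the block (adjusted p = 0.327). The oligodendrocyte markers moved with S100b here as well, with sums of 237, 603, 806 and 769 CPM in IFNg replicates 1 to 4, and 3 of their 9 tested genes were called lower (Bcas1, Myrf and Cnp). Of the 10 OPC markers, 8 were called lower, where 15.3% of all genes tested were. Their part in the change of S100b was not tested.

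Aqp4 fell in 3 of 4 replicates in CPM. It went from 43.0, 22.7, 5.63 and 19.7 CPM in Ctr to 18.2, 10.2, 6.48 and 10.3 CPM in IFNg, and in replicate 3, lowest in Ctr, it was 1.15-fold higher. In TPM it fell in replicate 3 as well, from 1.25 in Ctr to 0.86 in IFNg. The log2 change was -0.84 ± 0.21 (SE; adjusted p = 0.0206, edgeR), and the adjusted p lay between 0.052 and 0.0904 without replicate 1, 2 or 4 of Ctr or of IFNg. Glul showed the same pattern, at 425, 344, 201.9 and 317.5 CPM in Ctr and 279, 229, 206 and 261 CPM in IFNg, with 1.02-fold in replicate 3. In TPM Glul was lower in replicate 3, at 51.8 in IFNg against 56 in Ctr. Its log2 change of -0.36 ± 0.12 was just past the threshold (SE; adjusted p = 0.0480, edgeR), and 6 of the 11 fits that leave out a library lost the call, with adjusted p up to 0.186.

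The glutamate transporters were not called by edgeR with the block. Slc1a2 was at 136, 121, 65.0 and 83.2 CPM in Ctr and 129, 130.3, 89.0 and 152 CPM in IFNg. In replicate 1 Slc1a2 was lower in IFNg in CPM but higher in TPM, at 13.4 against 11.5 in Ctr. Its log2 change was 0.35 (95% interval -0.10 to 0.81; adjusted p = 0.216, edgeR), and it was called without IFNg replicate 1 (0.51, adjusted p = 0.0491, edgeR). Slc1a3 was at 753, 653, 251 and 420 CPM in Ctr and 737, 611, 434.5 and 704 CPM in IFNg, a log2 change of 0.36 (-0.06 to 0.79; adjusted p = 0.174, edgeR). DESeq2 with the block called Slc1a3 (0.36, adjusted p = 0.0422). For Slc1a3 in CPM, IFNg was below Ctr in replicates 1 and 2 and above it in replicates 3 and 4, by 1.73- and 1.68-fold. In TPM, IFNg was above Ctr in replicates 1 and 2 too, at 134.4 and 129.6 against 116.5 and 115.7. The direction in these 2 replicates thus depends on the unit.

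In 7 of 9 members, all but Gfap and S100b, the IFNg to Ctr fold of both replicates 3 and 4 was above that of both replicates 1 and 2, as in 19.6% of 17744 genes tested with reads in every Ctr library. These 7 genes were also lower in Ctr replicates 3 and 4, the denominator of the fold, and among all genes lower there the share was 38.1%. For Vim the folds were 1.73 and 1.78 in replicates 1 and 2 against 2.90 and 2.53 in replicates 3 and 4, and for Aldoc 1.22 and 1.595 against 2.81 and 2.08. The replicates with the larger folds were those with the lower Ctr levels of these genes and with the shared title prefix, and these cannot be told apart.

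**Figure D3:**
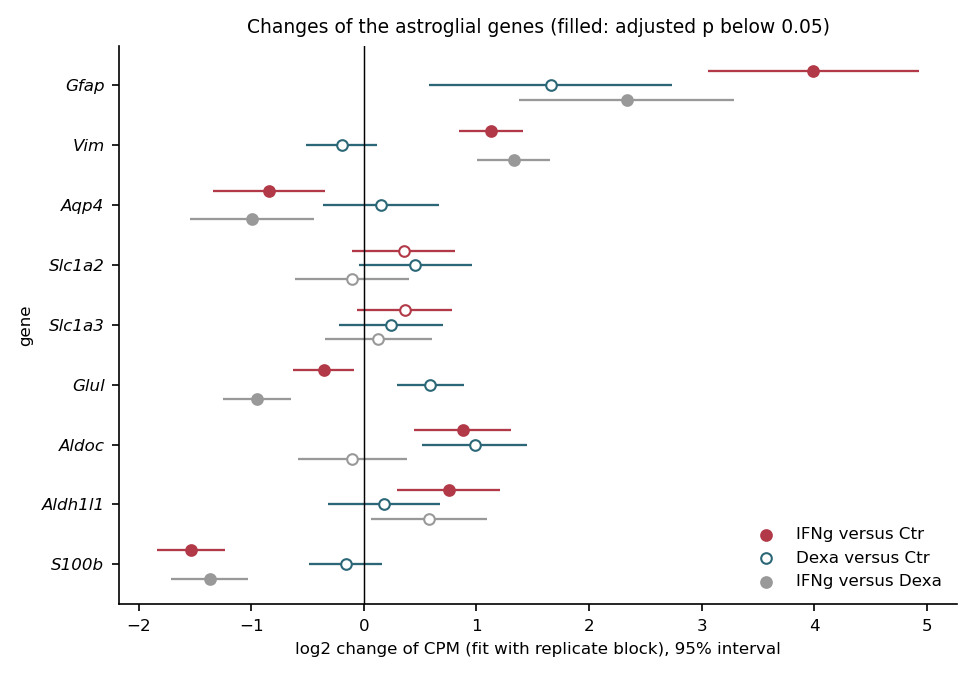
Log2 changes of the 9 genes with 95% intervals for IFNg versus Ctr, Dexa versus Ctr and IFNg versus Dexa, from the blocked fit, with filled points at an adjusted p under 0.05. Gfap lies farthest to the right for IFNg versus Ctr at 3.99 and S100b farthest to the left at -1.53, and no Dexa versus Ctr point is filled.

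Dexamethasone, a synthetic glucocorticoid, was set against Ctr in the 3 replicates with complete tables. None of the 9 members was called by edgeR with the block, where 1.7% of all genes tested were called. With only the Dexa and Ctr libraries in the fit, 6 members were called. That fit called 1740 genes in all, against 304 in the main fit. Gfap, Aldoc and Glul, 3 of 9, had an unadjusted p under 0.05, and DESeq2 with the block called 3. The treatment was visible in the same libraries in Fkbp5, a glucocorticoid target, with a log2 change of 1.42 ± 0.06 (SE; adjusted p = 3.31e-07, edgeR).

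Gfap was at 1.03, 4.31 and 1.47 CPM in Dexa replicates 1, 2 and 4, and the groups overlapped. It was above Ctr of the same replicate number in 3 of 3, by 1.72-, 3.57- and 2.998-fold. The log2 change was 1.66 (95% interval 0.58 to 2.74; adjusted p = 0.191, edgeR) and 1.64 with adjusted p = 0.00119 in DESeq2 with the block. In the incomplete table of Dexa replicate 3 Gfap was listed with 10 reads and 0.147 TPM, against 6 reads and 0.0329 TPM in Ctr replicate 3. Over the 12 libraries and only the genes that table holds whole, the log2 change was 1.59 (adjusted p = 0.111, edgeR).

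Aldoc was at 691, 624 and 438 CPM in Dexa and was the only member whose Dexa and Ctr libraries did not overlap, against 4.29% of all genes tested. Its log2 change was 0.98 (0.52 to 1.45; adjusted p = 0.0790, edgeR), and over 12 libraries it was 0.96 with adjusted p = 0.0415. Glul was at 672, 504 and 406 CPM, above Ctr of the same replicate number by 1.58-, 1.46- and 1.28-fold. Its log2 change was 0.59 (0.30 to 0.89, adjusted p = 0.0734, edgeR). The other 6 members had intervals that included 0, from -0.20 for Vim (-0.51 to 0.11) to 0.46 for Slc1a2 (-0.04 to 0.96). S100b was at 7.15, 27.6 and 81.7 CPM, and the oligodendrocyte marker sums of these cultures were 381, 957 and 2219 CPM.

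Set directly against each other in the same fit, IFNg and Dexa differed in 5 of 9 members, where 33.9% of all genes tested were called. Gfap was higher in IFNg by a log2 difference of 2.33 ± 0.41 (SE; adjusted p = 0.00331, edgeR) and Vim by 1.33 ± 0.14 (adjusted p = 1.18e-04). S100b (-1.37 ± 0.15, adjusted p = 1.08e-04), Aqp4 (-0.995 ± 0.23, adjusted p = 0.0146) and Glul (-0.95 ± 0.13, adjusted p = 6.33e-04) were lower in IFNg. Glul was lower in IFNg than in Dexa in 3 of 3 replicates, at 0.415 to 0.643 of the Dexa level. The groups did not overlap for Glul, Gfap and Aqp4. The share of all genes without overlap was not counted for this comparison. For Aldoc, higher than Ctr in every replicate of both treatments, the difference between treatments was -0.10 (95% interval -0.59 to 0.38; adjusted p = 0.740). Of the 5 calls only that of Glul held in edgeR without the block (adjusted p = 0.0148). There the adjusted p was 0.113 for Gfap, 0.272 for Vim, 0.190 for Aqp4 and 0.448 for S100b. DESeq2 without the block called Gfap (1.92, adjusted p = 0.0219) and Glul (-1.12, adjusted p = 3.3e-04). In edgeR with the block, Gfap, Vim, S100b and Glul were called with any of the 11 libraries left out. Aqp4 was called in 7 of these 11 fits.

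**Figure D4:**
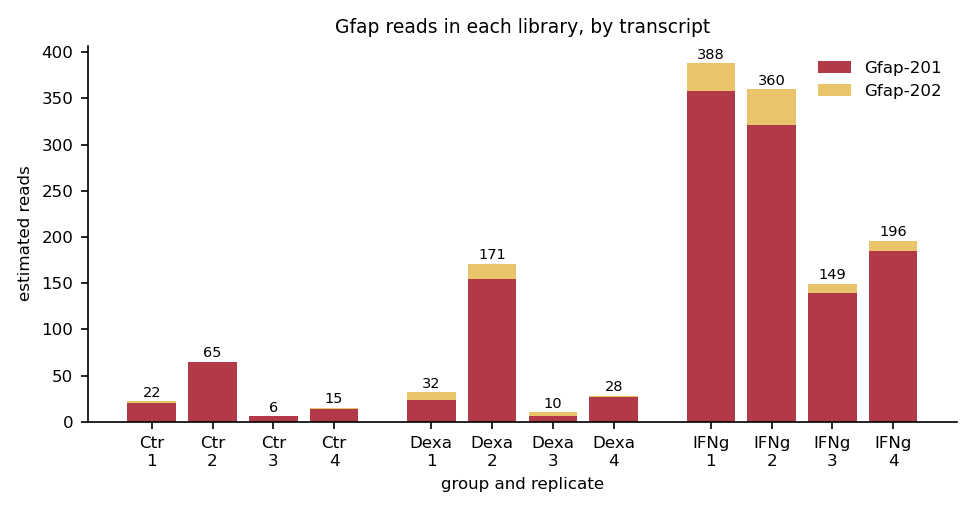
Estimated reads of Gfap-201 and Gfap-202 in each of the 12 libraries as stacked bars, with the Gfap total above each bar. Totals were 6 to 65 reads in Ctr, 10 to 171 in Dexa and 149 to 388 in IFNg, and Gfap-201 made up most of every bar.

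By transcript, the Gfap reads were mainly Gfap-201 in every library. Its share of Gfap reads was 91.5, 100, 100 and 88.8% in Ctr replicates 1 to 4, and 92.4, 89.1, 93.4 and 94.5% in IFNg. The group means were 95.1% ± 5.80 and 92.3% ± 2.31 (SD, n = 4 each), a difference of -2.75 percentage points (two-sided exact permutation test p = 0.4, smallest possible p = 0.0286). Gfap-202, with the alternative coding end shown above, made up the rest, 4.93% of Gfap reads on average in Ctr and 7.68% in IFNg. In Dexa the Gfap-201 share was 72.6, 90.5, 66.4 and 95.2%, with 32, 171, 10 and 28 Gfap reads behind these values. The 95% Wilson intervals, which cover counting error only, ran from 54.6 to 84.4% in Dexa replicate 1 and from 39.7 to 89.2% in Dexa replicate 3. Gfap-203, a transcript with no coding sequence that starts upstream, was assigned 0 of 1442 estimated Gfap reads over all libraries. Taken as simple counts, this would allow a share of reads of up to 0.208%. The reads were assigned by estimation and Gfap-203 shares exons with the other transcripts. It is 356 bases long against 2648 for Gfap-201, so its share of transcripts was not bounded.

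**Figure D5:**
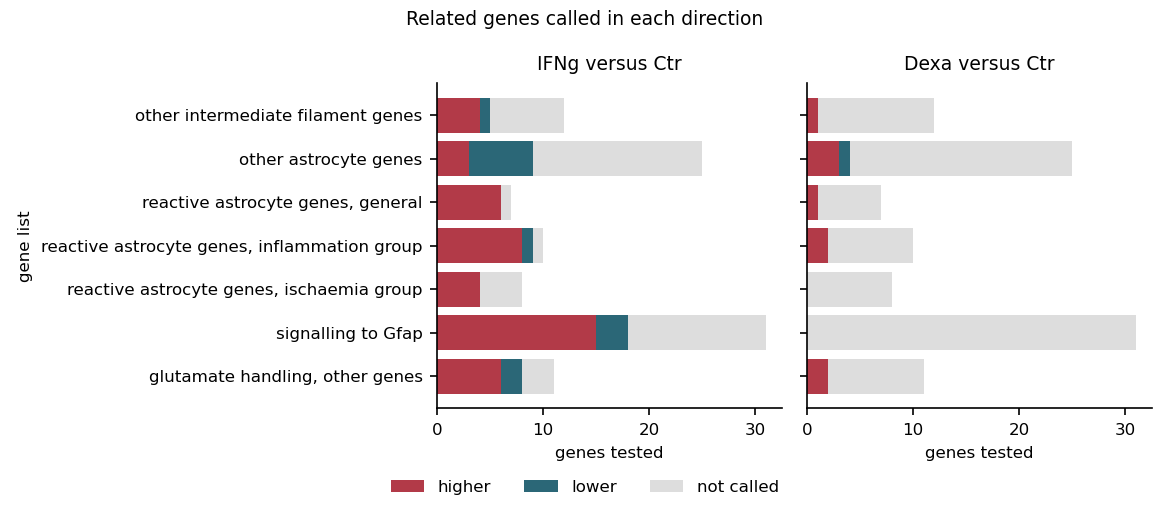
Number of genes tested in 7 related gene lists that were called higher, called lower or not called in IFNg versus Ctr and in Dexa versus Ctr. For IFNg versus Ctr the reactive astrocyte lists hold 18 higher and 1 lower of 25 tested genes, and the other astrocyte genes 3 higher and 6 lower of 25. Over all genes tested, 15.9% were called higher and 15.3% lower.

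Of the 25 other astrocyte genes tested, 3 rose in IFNg and 6 fell, where 15.9% of all genes were called higher and 15.3% lower, with a median log2 change of -0.03 against -0.01 over all genes. The 3 that rose were the urea transporter Slc14a1 (3.72 ± 0.38), the chaperone clusterin (Clu, 1.76 ± 0.11) and the glial transcription factor Sox9 (0.52 ± 0.13). The largest falls were in the neurotensin receptor Ntsr2 (-1.08 ± 0.26), the growth factor receptor Fgfr3 (-0.99 ± 0.20) and the glycogen regulator Ppp1r3c (-0.91 ± 0.08; log2 change ± SE, adjusted p at most 0.0172 for these 6). Fabp7, the fatty acid-binding protein of radial glia, averaged 2206 CPM in Ctr and was not called (0.03, adjusted p = 0.938), nor was Apoe (0.40, adjusted p = 0.506). In Dexa, where 1.7% of all genes tested were called, 3 of the 25 rose. Among them were the zinc transporter Slc39a12 (0.89 ± 0.19, adjusted p = 0.0437, edgeR) and the cholesterol acyltransferase Lcat (0.76 ± 0.14, adjusted p = 0.0209). In the other direction the BMP antagonist Chrdl1 alone fell (-0.44 ± 0.08, adjusted p = 0.0188). Gjb6 (connexin 30) was listed at 0 in all Ctr libraries and was too low to test.

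Most of the reactive astrocyte genes that could be tested rose in IFNg, where 15.9% of all genes tested were called higher and 15.3% lower. The general, inflammation and ischaemia lists hold 11, 12 and 12 genes, and those not tested were too low in the libraries to pass the filter. Of 7 tested genes of the general reactive list 6 rose in IFNg, led by the chemokine Cxcl10 (10.17 ± 0.19), the protease inhibitor Serpina3n (3.72 ± 0.24) and the oncostatin M receptor Osmr (2.87 ± 0.23). S1pr3 was not called (0.17, adjusted p = 0.540). Of 10 tested genes of the list named for inflammation-induced astrocytes 8 rose, led by Iigp1 (10.25 ± 0.31), Gbp2 (10.17 ± 0.12) and Serping1 (9.15 ± 0.13), and 1, Fbln5, fell (-0.998 ± 0.27, adjusted p = 0.0146). Gbp2, Iigp1, Psmb8, H2-T23 and H2-D1 in this list are known targets of interferon in many cell types. Of 8 tested genes of the ischaemia list 4 rose, the cytokine Clcf1 (1.88 ± 0.42), B3gnt5 (0.93 ± 0.08), Cd109 (0.86 ± 0.13) and S100a10 (0.79 ± 0.07). The median log2 changes were 1.41, 6.74 and 0.49. In these and the other lists a gene could pass the count filter through the 4 IFNg libraries alone. Genes low in Ctr, such as Cxcl10 at 0.154, Slc14a1 at 0.108 and Prph at 0.130 CPM, could thus be tested because they rose. In Dexa the reactive lists held 1, 2 and 0 called genes, all higher: Cp, and Fkbp5 and Amigo2. Over all genes tested, 1.7% were called in Dexa. For the ischaemia list, 0 had an unadjusted p under 0.05 in Dexa (edgeR), and DESeq2 with the block called 0. Without the block, edgeR called 12 of the 25 reactive genes in IFNg and 2 of the 25 other astrocyte genes.

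Of 12 other intermediate filament and linker genes tested, 4 rose and 1 fell in IFNg. Over all genes tested, 15.9% were called higher and 15.3% lower. Prph, the peripherin of peripheral neurons, rose by 6.25 ± 0.26 from 0.130 CPM in Ctr (log2 change ± SE; adjusted p = 5.61e-09, edgeR), followed by lamin A/C (Lmna, 1.51 ± 0.14) and the neurofilament Nefm (0.50 ± 0.16), with Plec as the fourth. Internexin (Ina) fell (-0.73 ± 0.08, adjusted p = 2.08e-05), and it was the list's single called gene in Dexa, where it rose (0.41 ± 0.08, adjusted p = 0.0332). Nestin (Nes), which assembles with vimentin, averaged 808 CPM in Ctr and was not called in IFNg (0.35, adjusted p = 0.133), nor was synemin (Synm; 0.32, adjusted p = 0.120).

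Among 31 genes of the pathways known to regulate Gfap, 15 rose and 3 fell in IFNg, against 15.9% and 15.3% of all genes tested. In Dexa 0 were called, against 1.7% of all genes (edgeR with the block). In that comparison 5 had an unadjusted p under 0.05, and DESeq2 with the block also called 0. The increases included those of the JAK inhibitor Socs1 (6.08 ± 0.14) and of Osmr. Stat3, through which gp130 cytokines drive Gfap, rose from 177 ± 19.1 CPM in Ctr (SD, n = 4) by 1.78 ± 0.06 (adjusted p = 7.87e-10), and the gp130 partner Lifr by 1.37 ± 0.10; both were singled out after their values were seen. The 3 that fell were the Notch target Hes1 (-0.49 ± 0.12) and the coactivators Crebbp (-0.17 ± 0.05) and Ep300 (-0.14 ± 0.05). Nfia (0.12, adjusted p = 0.243) and Smad1 (-0.05, adjusted p = 0.729), both known regulators of Gfap, were not called.

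Of 11 other glutamate-handling genes, 6 rose and 2 fell in IFNg, against 15.9% and 15.3% of all genes tested. The cystine-glutamate exchanger Slc7a11 rose by 1.55 ± 0.12 (adjusted p = 7.06e-06, edgeR) and the transaminases Got1 and Got2 by 0.55 ± 0.07 and 0.41 ± 0.06, while the neuronal-type transporter Slc1a1 fell (-0.65 ± 0.07, adjusted p = 1.64e-05), as did the glutamine carrier Slc38a2 (-0.24 ± 0.07, adjusted p = 0.0243). In Dexa Slc7a11 (0.71 ± 0.13, adjusted p = 0.0282) and Slc38a2 (0.44 ± 0.08, adjusted p = 0.0199) rose. Without the block, edgeR called 2 of the 11 glutamate genes in IFNg, 12 of the 31 Gfap pathway genes and 2 of the 12 filament genes. In Dexa the calls in the glutamate, filament and other astrocyte lists did not hold without the block in edgeR or DESeq2. The median log2 changes in IFNg were 0.22 for this list, 0.17 for the Gfap pathway genes and 0.27 for the filament genes. In IFNg versus Dexa, 4 of the 25 other astrocyte genes were higher and 13 lower, with a median of -0.56 against -0.02 over all genes, where 33.9% of all genes were called. Without the block, edgeR called 3 of the 25 and DESeq2 8. Between these treatments the reactive lists held 16 higher and 1 lower of 25, the filament genes 4 and 1 of 12, the Gfap pathway genes 14 and 4 of 31, and the glutamate genes 4 and 2 of 11. Without the block, edgeR called 12, 1, 10 and 2 genes of these lists.

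The genes whose profile over the 11 libraries was most like that of Gfap were sought by the root mean square difference in centred log2 CPM. The 5 closest were Pdzph1 at 0.687, Hspb8, a small heat shock protein, at 0.747, Serpinb9, an inhibitor of granzyme B, at 0.761, the phosphodiesterase Pde3a at 0.856 and Osmr at 0.863, against a median of 1.89 over the 17910 genes compared. Each rose in IFNg, by 2.45 (Hspb8) to 4.94 (Serpinb9) on the log2 scale, and none was called in Dexa. As they were chosen for likeness to Gfap in these same libraries, a shared rise in IFNg comes with the choice. Among the other members Vim was closest to Gfap at 1.45, with 554 genes closer, then Aldoc at 1.51 and Aldh1l1 at 1.53, and S100b was farthest at 2.86. The likeness is a description of 11 libraries that share replicate numbers and treatments.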

How the data were processed

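Total RNA from 12 OPC cultures was sequenced after rRNA depletion. The authors quantified transcripts with Salmon 0.8.2 against GRCm38 and deposited estimated counts and TPM values for each of 141862 transcripts; STAR and DESeq2 are also listed in the submitters' notes. Identifiers matched GENCODE M21 (Ensembl 96). The 3 deposited DESeq2 tables hold the authors' own comparisons and were not used, and the table of Dexa replicate 3 holds 47855 transcripts and 19130 whole genes.

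Estimated counts were summed per gene and rounded. Among the 11 complete libraries, genes reaching 10 counts in 4 or more were tested with edgeR 4.0.16 (R 4.3.3; TMM, robust quasi-likelihood), with group and replicate number as terms, Benjamini-Hochberg adjustment and a threshold of 0.05. Changes of a gene are given in TMM-scaled CPM, and levels between genes in TPM. SE is the log2 change over the square root of F. The study names DESeq2 for these data, run here as an alternative (1.42.0) with and without the block. The fit with the block is the main one because the genes were to be followed within replicates and the replicates came from different litters; that a number marks 1 litter across groups is not stated outright in the labels. As a check of the pairing, deviations from group means correlated at 0.414 to 0.745 for the 10 library pairs of the same number and at -0.646 to 0.526 for the other 30. Libraries of a group differed beyond sampling noise. The fits were tested on simulated data.

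The members, the related lists and the marker lists were chosen with earlier results of these data known. From each related list, up to 3 called genes a direction with the largest log2 change and up to 2 not called are named. Likeness to Gfap used log2 CPM with a prior count of 2. Alternatives were another scaling (RLE), no count filter, protein-coding transcripts only, only the 2 groups compared, 12 libraries, and each library left out in turn. TPM keeps no depth, so no interval is given for it. A few genes of these lists are counted in them but not reported here by name.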

Additional observations from a re-analysis of the deposited data

How the results depend on the processing

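Of the log2 changes of the members under all alternatives, 424 kept direction and side of the threshold, 26 gained a call, 44 lost one and 7 changed sign. Without the replicate block, edgeR called 1518 genes and 1 member for IFNg versus Ctr, 23 genes for Dexa versus Ctr, and 1568 genes and 1 member for IFNg versus Dexa, where the Gfap difference of 1.91 was no longer called. DESeq2 without the block called 2302 genes and 2 members, 98 genes, and 2345 genes and 2 members. For IFNg versus Dexa these 2 were Gfap and Glul. DESeq2 with the block called 460 genes and 3 members for Dexa versus Ctr, Gfap included at 1.64. For the Gfap-201 share, the paired exact sign-flip test gave p = 0.5 for the same -2.75 points.

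Over 12 libraries and the genes listed whole, 2021, 126 and 2424 genes were called for IFNg versus Ctr, Dexa versus Ctr and IFNg versus Dexa, with 3, 1 and 3 of the 5 measured members; fewer genes are tested there by construction. With no count filter, 4 members were called for IFNg versus Ctr and 466 genes for Dexa versus Ctr. With only the 2 groups compared, Dexa versus Ctr gave 1740 genes and 6 members, Gfap at 1.51, and IFNg versus Dexa 3946 genes; the cause was not tested.

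Leaving out each library in turn gave 4 to 7 members for IFNg versus Ctr, with the 4 found without Ctr replicate 4. For Dexa versus Ctr it gave 98 to 442 genes, fewest without Dexa replicate 2, 0 to 2 members, and a Gfap change of 1.00 to 2.06, called without IFNg replicate 2. The sign changes were all in IFNg versus Dexa, in differences near 0 that were not called with all 11 libraries: Slc1a2 ranged from -0.36 to 0.0815 (above 0 without Dexa or IFNg replicate 1), Slc1a3 from -0.0606 to 0.29 (below 0 without Dexa or IFNg replicate 4, and -0.14 without the block in both tools), and Aldoc from -0.22 to 0.0739 (above 0 without IFNg replicate 1). Of these differences only that of Slc1a2 was called in any such fit, without IFNg replicate 4. With 6 to 65 Gfap reads a library in Ctr, depth limits the Gfap transcript shares and the folds within replicates.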
